A study of Mus musculus with 2 samples.

Results

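The regions described here are the FoxO3 binding clusters of intermediate size in C2C12 myotubes, each made of 10 to 19 peaks. They were found by sorting the myotube peaks by chromosome and start and joining a peak to the previous ones when the gap from the farthest end so far to its start was at most 12000 bp. All peaks of joined regions with 10 to 19 peaks were kept. This gave 249 clusters holding 3144 of the 45457 myotube peaks (6.92%), out of 45958 peaks in both lists of the study. Binding was assayed by ChIP-seq, in which DNA bound by FoxO3 is pulled down with an antibody and sequenced, in C2C12, an established mouse myoblast line whose cells fuse into myotubes in low serum. The study has 1 library from cells in growth medium at hour -24 relative to differentiation medium (myoblast) and 1 library from cells at hour 72 of differentiation medium with horse serum (myotube). The anti-Foxo3 antibody was the same for each, and the labels name no genetic change or drug. The source label of both samples reads myoblasts, and the later one is called myotube after the design text of the series. The lists hold no expression values, so the stage was not checked against marker genes.

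FoxO3 is a forkhead transcription factor that insulin and growth factor signalling, through Akt, keeps out of the nucleus. In skeletal muscle it is best known for turning on protein breakdown genes during atrophy. A super-enhancer is a group of enhancers lying close together, usually near genes that define a cell's identity, and it is commonly found by joining nearby peaks and ranking the joined regions by their summed signal. Joining alone does not separate such a group from a long gene body covered by many weak peaks. Span, spacing, evenness and the strength of the best peak are therefore described below as measured features. No mm9 annotation or sequence was used here, so clusters are given by mm9 coordinates counted from 1, and their position relative to genes and exons was not analysed.

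The members were chosen by the number and positions of myotube peaks, and all values from the myotube list are descriptions without a test. With 1 library per condition, no value carries a replicate error. The authors' caller gave each peak a fold enrichment over its local background and a p-value, and these together fix the number of reads stacked at the summit (the pileup). At a member peak the median pileup was 15 reads (quartiles 13 and 21), against 18 (14 and 25) in the whole myotube list. The median local background was 1.83 reads at member peaks and 2.07 in the whole list, and the most frequent value of the list, its floor, was 1.51. Ranges in brackets after percentages are Wilson 95% intervals, those after read counts are exact Poisson 95% intervals, and both cover counting error only.

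The clusters were mostly near the lower limit of peak number. Their median span from the first start to the last end was 38425 bp (quartiles 28693 and 47574), with a shortest span of 11506 bp and a longest of 83809 bp. Clusters of exactly 10 peaks were the most frequent (59), followed by 11 (50) and 12 (32), and 7 clusters reached 19 peaks. On either side of the rule lay 73 clusters of 9 peaks, with a median span of 29262 bp, and 7 clusters of 20 peaks, with a median of 49034 bp. Clusters of 10 peaks had a median span of 32774 bp and those of 19 peaks 46150 bp, so the values run on across both limits. Peak number and span were only loosely related across the 249 clusters (Spearman rho 0.21, Pearson r 0.23), which all come from 1 library. The rule limits peak number to 10 to 19, so these values cover a narrow range only. Peaks covered a median of 7.27% of the span (quartiles 5.76% and 9.77%). Together the 249 spans made up 9.76 Mb, 0.381% of the 2561 Mb between the first and last peaks of the 20 chromosomes.

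Spacing within these clusters lay between that of smaller and larger clusters. The median distance between neighbouring summits was 2228 bp over 2895 pairs (quartiles 935.5 and 5084). It was 3709 bp in clusters of 3 to 9 peaks (11633 pairs) and 959 bp in clusters of 20 or more (4397 pairs). Summits within 1000 bp of each other made up 26.9% of pairs (25.3% to 28.5%), against 18.7% in the smaller clusters and 51.9% in the larger ones. Within a cluster the distances were uneven. The coefficient of variation of summit distances had a median of 0.833 (quartiles 0.703 and 0.988), and the closest and widest steps of a cluster had medians of 425 and 9468 bp. The spacing follows from the joining distance in part, and joining at 5000 bp gave 118 clusters with a median summit distance of 1226 bp.

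**Figure D1:**
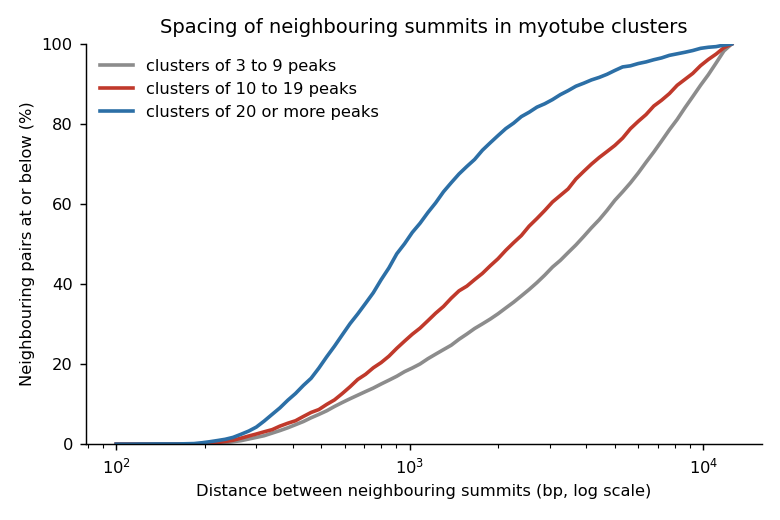
Cumulative share of neighbouring summit pairs (percent, y axis) at or below a given distance (bp, log scale, x axis) in myotube clusters of 3 to 9, 10 to 19 and 20 or more peaks. The curve for 10 to 19 peaks runs between the other two, with 46.3% of pairs within 2000 bp against 32.6% and 77.1%.

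Most member peaks were of modest strength. Their median fold was 7.93 (quartiles 6.61 and 10.2), the same median as in clusters of 20 or more peaks, and below the 8.81 of clusters of 3 to 9 and the 8.59 of the whole list. A fold of 7.93 is, for example, 12 reads over a background of 1.51. Peaks at a fold of 20 or more numbered 139 of 3144 (4.42%, 3.76% to 5.20%), where the whole myotube list had 5.88%. The share was 7.42% in clusters of 3 to 9 peaks and 0.511% in clusters of 20 or more. Widths were like those of the list, with a median of 187 bp (quartiles 140 and 267) against 186 bp, and 113 member peaks (3.59%) were 500 bp or wider, against 2.64% of the list. Raised background, meaning over 3 times the floor, was present at 69 member peaks (2.19%, 1.74% to 2.77%), where the whole list had 3.58%.

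The best peak of a cluster, the one of highest fold, usually stood only moderately above the rest. Its median fold was 17.04 (quartiles 11.72 and 23.59), with a lowest value of 9.02 and a highest of 72.82, and its median pileup was 34 reads. The second peak had a median fold of 12.05. The best peak was at least 1.5 times the median fold of its cluster in 185 of 249 clusters (74.3%), at least 2 times in 123 (49.4%), at least 3 times in 48 (19.3%) and at least 5 times in 11 (4.42%). In 29 clusters (11.6%, 8.23% to 16.2%) the counting interval of the best fold lay wholly above that of the second. Overlap of these intervals in the other clusters does not show that the peaks were equal, since the pair of counts was not compared directly. A peak of fold 20 or more was present in 98 clusters (39.4%, 33.5% to 45.5%), and 33 clusters (13.3%) had at least 2 such peaks. At least 2 were present in 1.03% of all joined regions. The share was 4.82% in clusters of 3 to 9 peaks and 6.54% in those of 20 or more. Of all 22217 joined regions, most of them single peaks, 10.8% had a peak of fold 20 or more. Such a peak was present in 25.4% of clusters of 3 to 9 peaks and in 16 of 107 clusters of 20 or more. A region with more peaks has more chances to hold one, so the higher share than in all regions does not show stronger peaks. Peak by peak, this fold was reached less often in the clusters of 10 to 19 than in the list (4.42% against 5.88%). The share of clusters with a peak of fold 20 depended on the joining distance and was 7.63% when peaks were joined at 5000 bp, over 118 clusters.

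The cluster with the highest best peak lay at chr2:163496593-163542894, with 12 peaks over 46302 bp. Along the chromosome its folds were 8.22, 27.64, 72.82, 10.06, 7.09, 6.28, 6.22, 10.09, 5.32, 8.98, 6.34 and 8.39. Its best peak, from 163511460 to 163511893, had 147 reads (124 to 173) over a background of 2.02, and the 10 peaks other than the leading pair stayed at or under a fold of 10.09. A second cluster on the same chromosome, from 163156553 to 163196053, had a similar form. Its best peak had a fold of 66.52 from 172 reads (147 to 200), and the next of its 11 peaks had 14.02. On chromosome 6, the cluster at chr6:101263793-101294989 had the highest ratio of best to median fold, 8.94. Its best fold was 58.71 (100 reads), its second 20.17, and its other 8 peaks lay between 4.25 and 10.28. In each of these clusters a single site carried over 50% of the summed fold times width of all peaks (56.4%, 53.2% and 55.7%).

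**Figure D2:**
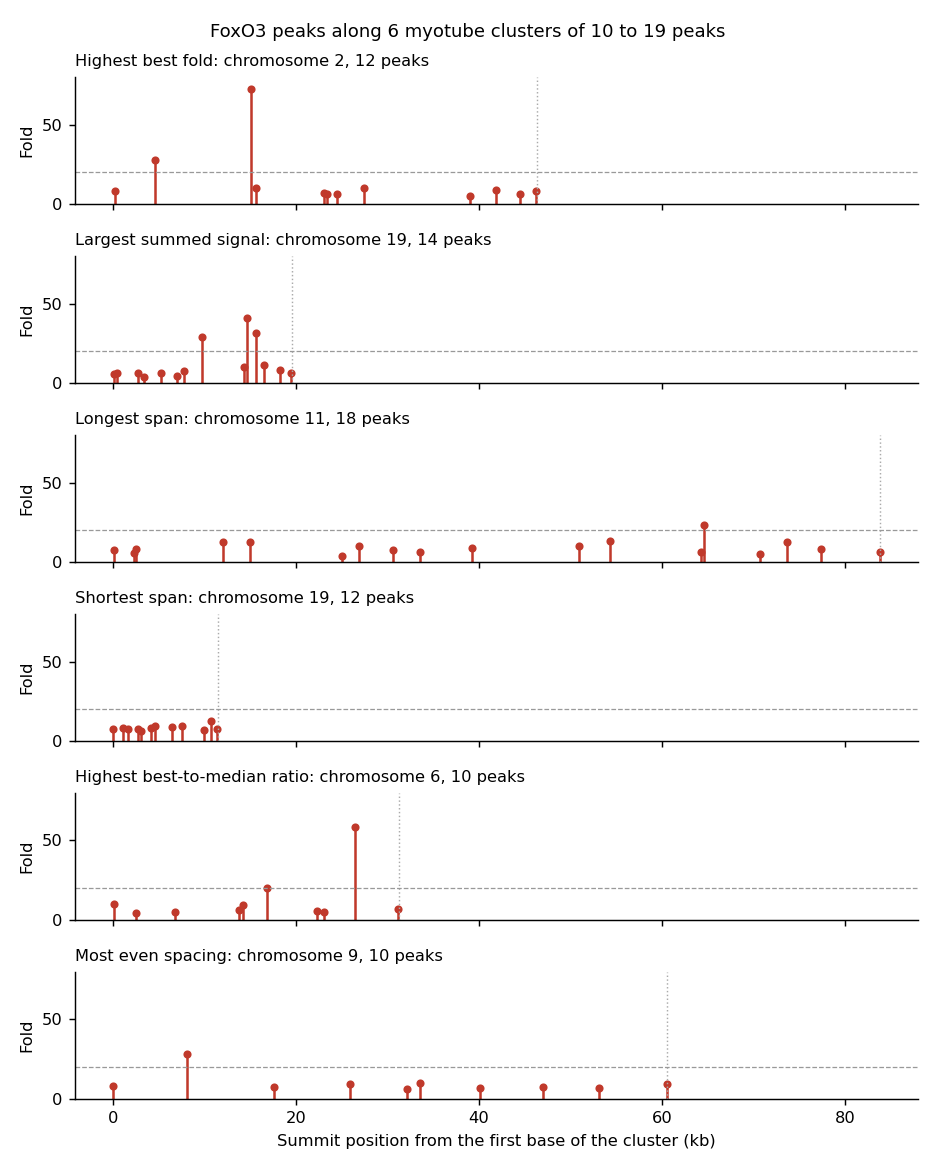
Fold enrichment (y axis, linear) of every peak against its summit position in kb from the first base of the cluster (x axis), for the first-ranked cluster under each of 6 rules. The dashed line is a fold of 20 and the dotted line the end of the cluster. The chromosome 2 cluster shows 1 peak at 72.82 among peaks mostly near 8, and the shortest cluster shows 12 peaks between 6.34 and 12.45.

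Further clusters among the highest by best fold, summed signal or ratio of best to median fold differed in how far 1 peak led. The cluster at chr6:67052474-67092485 had 11 peaks with a best fold of 58.02 (120 reads, 99.5 to 143) from 67088198 to 67089341, a peak 1144 bp wide. Its first peak had a fold of 36.99, while the best summit lay at 91.2% of the 40012 bp span, and the 9 remaining peaks had folds from 4.83 to 12.96. The best peak carried 59.3% of the summed fold times width. A cluster of 10 peaks at chr3:79038560-79074122 had a best fold of 52.67 (103 reads, 84.1 to 125) and a median fold of 13.1, with 49.0% of the summed fold times width in the best peak. Of the 16 peaks of the cluster at chr17:7814195-7879718, 4 had a fold of 20 or more, with a best fold of 46.38 and a median of 12.9. The cluster at chr15:77668617-77722511 had a best fold of 49.64 from 154 reads, but 5 of its 16 peaks had raised background.

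At the other end were clusters of short span with nearly level peaks. The shortest, at chr19:60841631-60853136, had 12 peaks in 11506 bp, with folds of 7.25, 8.38, 7.25, 7.61, 6.34, 8.38, 9.25, 9.02, 9.51, 6.72, 12.45 and 7.27. Their pileups ran from 10 to 19 reads, and the interval of the highest (11.4 to 29.7 reads) covers all the others but the 2 lowest. Next came 10 peaks in 11938 bp at chr18:34759609-34771546, with folds from 4.64 to 9.91. The clusters at chr3:113307642-113320654 (10 peaks) and at chr15:54872192-54886569 (14 peaks) had best folds of 9.91 and 10.04. The remaining cluster of the 5 shortest, at chr13:101572900-101587077, had 10 peaks with a best fold of 13.88. None of these 5 clusters had a peak of fold 20.

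Long clusters and evenly spaced clusters included level ones and ones with a strong peak. The longest, at chr11:80248585-80332393, had 18 peaks with folds from 3.87 to 13.21 and 1 peak of 23.45 (97 reads over a background of 4.14). Another on chromosome 11, at chr11:100213577-100287388, had a best fold of 42.06 among 15 peaks, with 17.12 as its next value. The long clusters at chr19:37961256-38044752, at chr4:57562243-57636022 and at chr5:124012577-124085515 had best folds of 19.12, 16.91 and 12.89. The most even spacing was found at chr9:107481879-107542440, where 10 peaks followed each other at distances of 1324 to 9500 bp (coefficient of variation 0.343). There 1 peak of fold 28.42 stood among 9 peaks of 6.04 to 9.91. In the next most even cluster, at chr18:61769377-61803584, the best peak of fold 18.25 was the first of 10. The even cluster at chr3:101864147-101934718 was level at a higher height, with 14 peaks of fold 5.56 to 15.85 and a median of 10.6. The even clusters at chr4:108694701-108758561 and at chr19:36738407-36776175 had best folds of 20.31 and 30.3.

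The share of clusters with a strong peak was lower in the bands of higher peak number, without a steady fall from 1 number to the next. A peak of fold 20 was present in 63 of 141 clusters of 10 to 12 peaks (44.7%, 36.7% to 52.9%), in 26 of 71 clusters of 13 to 15 (36.6%, 26.4% to 48.2%) and in 9 of 37 clusters of 16 to 19 (24.3%, 13.4% to 40.1%). More peaks give more chances for a strong one, yet the share of peaks at this fold went down with it, from 5.71% of 1524 to 3.55% of 985 and 2.68% of 635. Just outside the rule the numbers were 87 of 193 clusters with 8 or 9 peaks and 3 of 20 clusters with 20 to 22. The median best fold was 19.02, 16.91 and 13.88 in the 3 bands. By single peak number, the share with a peak of fold 20 was 52.5% at 10 peaks and 34.6% to 40.6% at 11 to 16 peaks. At 17, 18 and 19 peaks it was present in 1 of 6, 2 of 8 and 0 of 7 clusters. The intervals of neighbouring bands overlap, and the order is a description of 1 library.

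**Figure D3:**
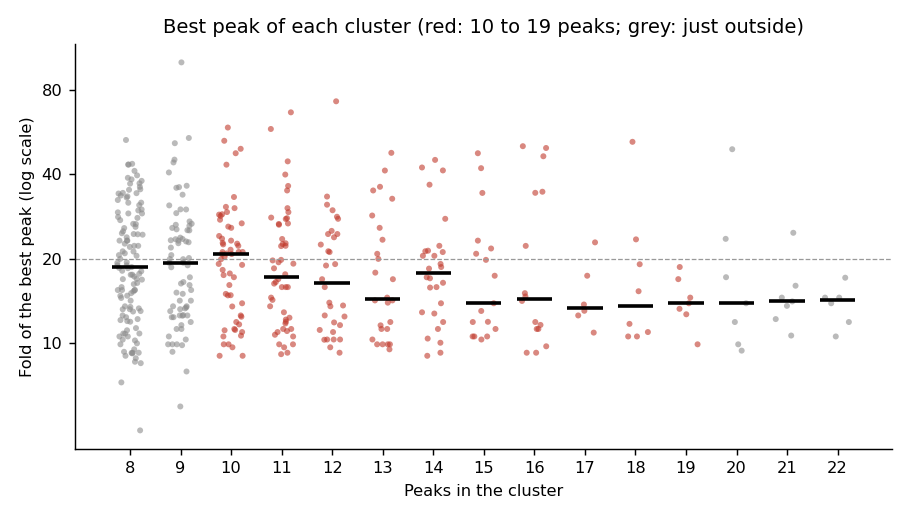
Fold of the best peak (log scale, y axis) against the number of peaks in the cluster (x axis), 1 point per cluster with a small random sideways shift. Black bars are medians and the dashed line is a fold of 20. The median is 20.77 at 10 peaks and 13.88 at 19 peaks.

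The clusters with a strong peak also differed from the rest in their other peaks. In the 98 clusters with a best fold of 20 or more, the remaining peaks had a median fold of 8.59 (median over clusters, quartiles 7.81 and 9.83), against 7.42 (7.09 and 7.93) in the 151 clusters without one. Their median span was 43892 bp against 33305 bp, and the median of their typical summit distances was 3153 bp against 1970 bp. Peak widths had medians of 213 and 176 bp. Local background moved with these features, at a median of 2.07 reads in the first kind and 1.56 in the second, near the floor, and its part in them was not tested. Across the 249 clusters the best fold went with the median fold of the other peaks (Spearman rho 0.54), with median width (0.56), with median background (0.47) and with span (0.42). The other peaks of a cluster cannot exceed its best peak, and all stay under a fold of 20 in the second kind. Their lower folds there and the correlation with the best fold are therefore built in to some extent. These points share a library and a caller, so the values are descriptions.

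The folds of the other peaks varied little with distance from the best peak. In clusters with a best fold of 20 or more, the other peaks within 1 kb of the best summit had a median fold of 9.49 (38 peaks) and those at 1 to 2 kb had 10.31 (43 peaks). From 5 kb outward the medians stayed between 8.51 and 8.65 up to 90 kb. In clusters without a strong peak the medians ran from 7.27 within 1 kb to 7.93 beyond 40 kb. The best peak was the first or last of its cluster in 51 of 249 clusters (20.5%, 15.9% to 25.9%), in 21 of the 98 with a strong peak and 30 of the 151 without. This share was 53.5% in clusters of 3 to 9 peaks and 13.1% in those of 20 or more. The outermost peaks make up less of a cluster with more peaks, and a preference for the ends was not tested. The median distance of the best peak from the nearer end was 21.8% of the span.

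**Figure D4:**
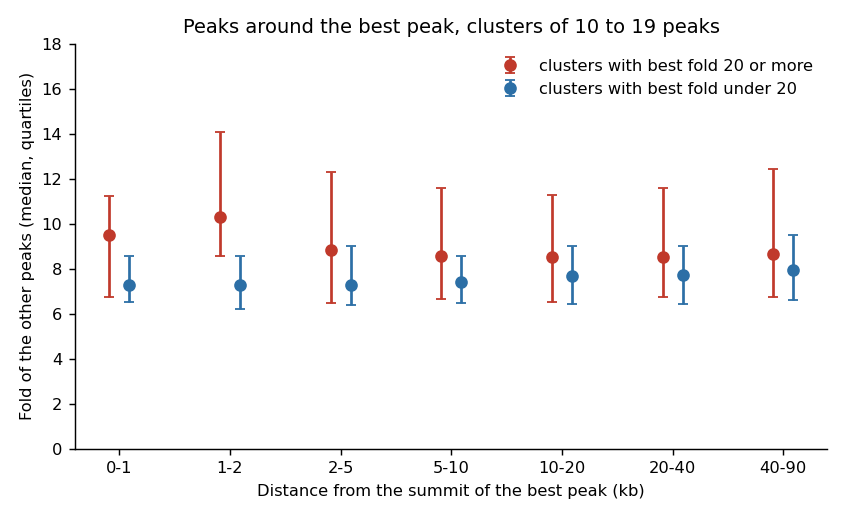
Fold of the peaks other than the best one (points are medians, bars are quartiles, y axis) by distance from the best summit in kb (x axis), for the 98 clusters with a best fold of 20 or more (red) and the 151 others (blue). The red medians are higher in every distance band, at 8.51 to 10.31 against 7.27 to 7.93. By the split, no peak of the blue clusters can reach a fold of 20.

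Ranked by summed signal, as is done for super-enhancers, these clusters fell on both sides of the bend of the curve. Signal was taken as the sum of fold times width over the peaks of a region, and the threshold was set where the ranked curve of all 22217 joined regions, with both axes scaled to 1, has a slope of 1. Of the 249 clusters, 141 (56.6%, 50.4% to 62.6%) lay above it, where 2.66% of all joined regions did. All 107 clusters of 20 or more peaks and 290 of 3670 clusters of 3 to 9 peaks (7.90%) lay above it too. The sum grows with the number of peaks, which chose the clusters, so these shares do not set the clusters apart. Of the 98 clusters with a strong peak, 88 lay above the threshold (89.8%), as did 53 of the 151 others (35.1%). Across clusters the summed signal went with the best fold (Spearman rho 0.79), which enters the sum, and weakly with the peak number (0.25). The rule limits peak number to 10 to 19, so the last value covers a narrow range only. The median summed signal was 8875 in clusters of 3 to 9 peaks, 26557 in those of 10 to 19 and 66739 in those of 20 or more. With pileup in place of fold the bend was passed by fewer regions, 135 of all 22217 against 590 with fold. Of the clusters, 31 (12.4%) lay above it, or 70 (28.1%) when mitochondrial peaks were left out.

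**Figure D5:**
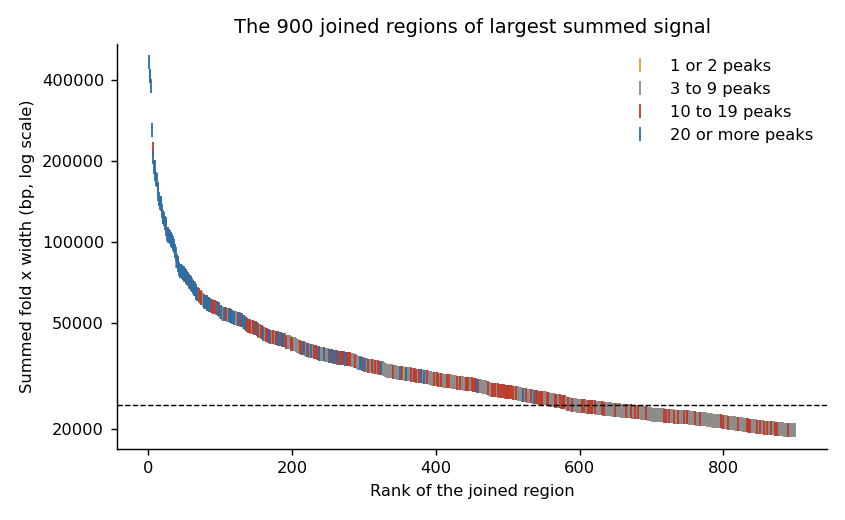
Summed fold times width (bp, log scale, y axis) of the 900 joined myotube regions that rank highest (x axis), coloured by the number of peaks. The dashed line is the threshold at a summed signal of 24646, above which lie 590 regions, 141 of them with 10 to 19 peaks.

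The cluster with the largest summed signal lay at chr19:5832084-5851634, sixth among all joined regions, with 14 peaks in 19551 bp. Its peaks covered 52.2% of the span, the highest share among the 249 clusters. A single peak from 5840124 to 5845838, 5715 bp wide with a fold of 29.0, made up 74.5% of the summed signal. The best peak of the cluster, of fold 41.29 and 93 reads (75.1 to 114), lay just after it from 5846556 to 5846944, followed by a peak of fold 31.7. The first 7 peaks had folds of 3.63 to 7.60. Another cluster of 17 peaks, from 5786471 to 5818166, ended 13917 bp before it.

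Next in summed signal came the chromosome 6 cluster at 67052474 described above and the chromosome 17 cluster at 7814195. After them stood a cluster at chr15:58886274-58941037, with 15 peaks, a best fold of 34.33 and 4 peaks of raised background. Finally, the cluster at chr10:41264345-41328608 had 16 peaks and a leading pair of nearly equal folds, 34.67 and 31.91. Their counting intervals overlap.

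Some of these clusters lay beside others of 10 or more peaks. Within 25000 bp of another such region lay 14 of the 249 clusters (5.62%), and within 100000 bp 32 (12.9%). These shares were not computed for other regions, so they cannot be called high or low. On chromosome 8 a cluster of 13 peaks ending at 42383915 was followed after 12445 bp by a cluster of 12 peaks. On chromosome 10 a cluster of 12 peaks from 57842551 to 57890124 lay 14061 bp before a cluster of 54 peaks. The smallest gap from a cluster to the next region was 12088 bp and the largest gap inside one was 11975 bp, the values nearest the joining limit on either side. The median gap to the next region was 24720 bp, over 497 flanks. The joining rule itself makes every gap outside a cluster larger than every gap inside one. Gaps beside other regions were not computed, so this median does not show that the clusters were set off.

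The clusters were found on all 20 chromosomes with nuclear peaks, at unequal density. Chromosome 19 had 16 clusters, or 27.6 per 100 Mb (Poisson interval 15.7 to 44.7), against 9.72 per 100 Mb over all chromosomes. Of its peaks, 13.6% lay in clusters of 10 to 19, the highest share of any chromosome, although its peak density of 24.9 per Mb was below the 27.8 of chromosome 11. Chromosome 10 had 22 clusters (17.3 per 100 Mb, 10.9 to 26.2). Chromosomes 9 and 15 had 6 and 5 clusters, or 4.96 (1.82 to 10.8) and 4.99 (1.62 to 11.6) per 100 Mb. Chromosome X had 2 (1.24, 0.151 to 4.49), and also the lowest peak density.

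Few of the clusters held a site listed in myoblasts. The myoblast list, 501 peaks with a median pileup of 8 reads, played no part in choosing the clusters. By an overlap of at least 1 bp, 5 of the 3144 member peaks matched a myoblast peak (0.159%, 0.0679% to 0.372%), where 0.224% of the whole myotube list did, so at this depth no difference from the list was detectable. A myoblast peak lay somewhere within the span of 8 clusters (3.21%, 1.64% to 6.21%), each with 1, where 0.621% of all joined regions held one. Spans of many kilobases hold more by their length alone. Per Mb of span the clusters held 0.820 myoblast peaks (Poisson interval 0.354 to 1.62), against 0.194 (0.178 to 0.212) over the 20 chromosomes. The spans of clusters of 3 to 9 peaks held more, 1.55 per Mb (1.23 to 1.92), and those of 20 or more held 0.136 (0.00344 to 0.756), from 1 peak. The value of the clusters of 10 to 19 lay between these, and its interval overlaps both.

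The 8 myoblast peaks inside the clusters had 6 to 10 reads, around the median of 8 reads of their list, and folds of 11.15 to 22.53. The highest, at chr1:92929281-92929357 (10 reads), had its summit 12 bp from that of a myotube peak of fold 18.69 (29 reads), the second of the 13 peaks of the cluster from 92919060 to 92974107. In the cluster at chr4:149187605-149221841, the myoblast peak of fold 14.89 (7 reads) overlapped a myotube peak of 20.35 (33 reads), while the best peak of the cluster had 36.35. In the cluster at chr14:70530813-70576027, a myoblast fold of 11.15 (10 reads) stood against a myotube fold of 15.85 (26 reads). In the cluster at chr10:5276012-5317969 the values were 18.03 (8 reads) and 14.33 (47 reads), with 3 peaks of the cluster at a fold of 20 or more. In the cluster at chr8:86711397-86734739 they were 11.15 (10 reads) and 7.25 (15 reads), where the best peak of the cluster had 24.5. By fold the shared sites ranked 2, 2, 2, 5 and 8 in these 5 clusters of 10 to 13 peaks, in the order given. None was the best peak, but 5 sites are too few to read a tendency from this. The folds and reads of the lists are not scaled to each other and are given side by side. The other 3 myoblast peaks overlapped no myotube peak. On chromosome 1 they lay 302 bp from the nearest myotube summit, in a cluster with a best fold of 10.57, and 1699 bp away in a cluster with 14.99. On chromosome 6 the distance was 456 bp, in a cluster with a best fold of 17.85.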

How the data were processed

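The deposited data are 1 peak list per sample in narrowPeak layout, per the file headers. The submitters' processing notes name MACS2 2.1.0 and build mm9. How reads were aligned, which control was used and how peaks were thresholded is not given in the sources used here. Each deposited row holds a linear fold enrichment (ratio) over local background. It also holds the peak's p-value and q-value as −log10, per the file headers. The deposited score equals 10 times −log10 q without its decimals, in 100% of rows, and the summit is an offset in bp. Total depth is unknown. The folds are the authors' values and only rank or describe peaks within a list.

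Pileups were recovered as the whole number whose Poisson tail, with a background of pileup over fold, lay nearest the p-value (tolerance 0.02 on the log10 scale), for 45452 of 45457 myotube and 501 of 501 myoblast peaks. On simulated data 2000 of 2000 pileups and 36 of 36 planted clusters were recovered. These data were built with the same Poisson formula and joining distance, so this checks the code only. It cannot show that the recovered pileups equal those of the caller. Fold times width applies the summit fold to the whole peak and so overstates the area. The members, the fold of 20 and the other settings tried were chosen with earlier results of these data known. The bands of peak number, the split at a best fold of 20 and the distance bands were chosen after values had been seen. Named clusters are the 5 highest by best fold, summed signal, span, ratio of best to median fold and evenness, the 5 shortest, and all 8 that held a myoblast peak. The cluster of 17 peaks beside the one of largest signal, and the neighbouring pairs, were named after their values were seen. A gene table of GRCm38.p6 was not used, since the lists are on mm9. Tools were Python 3.11.15 with numpy 2.4.6, scipy 1.17.1, pandas 2.3.3 and matplotlib 3.10.9.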

Additional observations from a re-analysis of the deposited data

How the results depend on the processing

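Of 48 alternative values, 19 stayed within the counting interval or 1.5 times of the reported one and 29 moved. Joined at 5000 bp there were 118 clusters (1531 peaks), with a median span of 19572 bp, summit distance of 1226 bp, member fold of 7.74 and best fold of 11.61. Of these, 7.63% had a peak of fold 20 and 63.6% lay above the signal threshold, and 0.0653% of their peaks overlapped a myoblast peak. Joined at 25000 bp there were 547 (7102 peaks), with medians of 77443 bp, 4416 bp, 8.54 and 20.89. Of these, 51.9% had a peak of fold 20, 42.8% lay above the threshold and 7.68% held a myoblast peak. With −log10 q-values of 5 or more there were 140 (1734 peaks) with a median member fold of 8.88, 70.7% above the threshold, and 0% of peaks or clusters with a myoblast peak (3 counts would be 0.173% and 2.14%). This filter itself removes 7 of the 8 myoblast peaks in the clusters. A fold of 15 in place of 20 was reached in 56.6% and 30 in 14.5% of clusters. Summed pileup put 12.4% above its own threshold, which 135 of all 22217 joined regions passed against 590 for fold times width. Mitochondrial reads set the scale of this sum in part, and 28.1% lay above without mitochondrial peaks, a setting chosen after seeing the data. Overlap of 50% of both peaks gave 0%, a rule that a myoblast peak narrower than 50% of its myotube peak cannot meet. With summits within 200 bp the share stayed at 0.159%. Leaving out raised background moved none of the 10 values. The other causes were not tested, beyond what each setting removes by construction. The planned setting for gene position was not run, since no annotation of this build was used. No paired analysis was possible because there is only 1 library in each group.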
